A study of Homo sapiens with 6 samples.

Results

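Sialic acid-binding immunoglobulin-like lectins (Siglecs) are surface receptors of immune cells, and 8 human Siglec genes, *CD22*, *CD33*, *SIGLEC1*, *SIGLEC5*, *SIGLEC7*, *SIGLEC9*, *SIGLEC10* and *SIGLEC14*, were followed through lymphoid-to-myeloid transdifferentiation with and without CTCF. The genes were chosen by symbol, to set *CD22* and *SIGLEC10*, called B cell Siglecs here, against the others, called myeloid Siglecs. These names are labels of the comparison, and neither group is taken to be restricted to a cell type. All 8 genes are listed among the 30017 genes with counts. Of these, 7 were among the 14758 genes tested, and *SIGLEC14* did not pass the filter on low counts.

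RNA-seq was performed on 6 libraries of a single subclone of the leukemia B cell line BLaER, CTCF-AID, in which both the control and the depleted cells carry CTCF fused to an auxin-inducible degron. BLaER cells convert into induced macrophages when estradiol releases an introduced CEBPA into the nucleus in the presence of the cytokines IL-3 and CSF-1. There were 2 biological replicates per condition: untreated cells (0 h), cells after 96 h of factors (96 h control), and cells that received the auxin IAA with the factors and were collected at 96 h (96 h CTCF-depleted). IAA was given to no cells without factors and to no cells without the degron, so that effects of IAA and of CTCF loss cannot be told apart, and all values describe 1 subclone.

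Siglecs read sialic acids, the sugars that cap the glycans of most cell surfaces. Most of them carry tyrosine-based inhibitory motifs in the cytoplasmic tail that recruit the phosphatases SHP-1 and SHP-2, so that binding of sialylated ligands restrains signalling. CD22 (Siglec-2) is the classical inhibitory co-receptor of the B cell antigen receptor, and Siglec-10 is also found on B cells. CD33 (Siglec-3), Siglec-5, Siglec-7 and Siglec-9 are inhibitory receptors of monocytes, macrophages, neutrophils or natural killer cells, Siglec-1 (sialoadhesin, CD169) is an adhesion receptor of macrophages without such motifs, and Siglec-14 is an activating receptor that pairs with the adaptor DAP12.

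In hg38 (GENCODE release 44), *CD22* lies apart from the other genes of the group on chromosome 19, at chr19:35319261-35347361 on the plus strand. A cluster further along the same chromosome holds *SIGLEC9* (chr19:51124906-51136651, plus strand), *SIGLEC7* (chr19:51142299-51153526, plus), *CD33* (chr19:51225064-51243860, plus), *SIGLEC10* (chr19:51410020-51417803, minus), *SIGLEC5* (chr19:51610960-51630401, minus) and *SIGLEC14* (chr19:51639478-51646825, minus). *SIGLEC1* is on chromosome 20, at chr20:3686970-3712600 on the minus strand.

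The 250 bases upstream of the RefSeq start (GRCh38.p14) are shown for the B cell Siglecs *CD22* and *SIGLEC10*, for *CD33* and for *SIGLEC9*, the most abundant myeloid Siglec, because the comparisons turn on these 4 genes. Capitals mark the letters of a PU.1-like motif (GAGGAA) or a C/EBP-like motif (TTGCNNA) on either strand, since PU.1 and C/EBPα are myeloid transcription factors and C/EBPα is the factor that drives this conversion. The *SIGLEC9* start is also the GENCODE start, whereas the *CD22*, *SIGLEC10* and *CD33* starts lie inside the gene bodies given above.
CD22, chr19:35328937-35329186, plus strand: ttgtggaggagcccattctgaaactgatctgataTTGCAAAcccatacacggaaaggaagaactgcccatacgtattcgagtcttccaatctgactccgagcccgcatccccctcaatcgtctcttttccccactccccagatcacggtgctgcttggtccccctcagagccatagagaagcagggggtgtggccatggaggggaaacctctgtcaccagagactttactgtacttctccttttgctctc
SIGLEC10, chr19:51417643-51417892, minus strand: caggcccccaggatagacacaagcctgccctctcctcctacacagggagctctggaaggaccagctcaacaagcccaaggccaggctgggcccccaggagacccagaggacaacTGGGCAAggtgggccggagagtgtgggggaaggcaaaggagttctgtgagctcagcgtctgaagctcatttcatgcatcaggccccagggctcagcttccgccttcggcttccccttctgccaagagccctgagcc
CD33, chr19:51224830-51225079, plus strand: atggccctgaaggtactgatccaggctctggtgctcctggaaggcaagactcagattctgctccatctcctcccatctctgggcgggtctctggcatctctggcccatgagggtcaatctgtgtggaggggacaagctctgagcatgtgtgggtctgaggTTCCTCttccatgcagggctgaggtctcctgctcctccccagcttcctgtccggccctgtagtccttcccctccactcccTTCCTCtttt
SIGLEC9, chr19:51124656-51124905, plus strand: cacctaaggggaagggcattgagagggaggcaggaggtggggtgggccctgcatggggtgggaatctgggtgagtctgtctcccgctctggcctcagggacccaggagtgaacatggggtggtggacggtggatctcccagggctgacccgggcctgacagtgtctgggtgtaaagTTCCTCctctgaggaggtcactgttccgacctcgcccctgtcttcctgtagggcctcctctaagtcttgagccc

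RefSeq promoter windows of 300 bases, from 250 before to 50 after the start, were matched for 7 of the 8 genes. The PU.1-like letters were in 3 of these 7 windows and in 27.9% of all 34796 windows. They began at -90, -10 and 29 relative to the start of *CD33*, at -74 and 23 of *SIGLEC9* and at -135 of *SIGLEC7*. The C/EBP-like letters were in 2 windows, at -216 of *CD22* and -136 of *SIGLEC10*, and in 33.1% of all windows. An EBF1-like motif (CCCNNGG), named for a B cell factor, was in the *SIGLEC9* and *SIGLEC10* windows and in 58.4% of all. A CTCF-like motif (AGGNGGC) was in the *SIGLEC9* window, at -22, and in 35.8% of all. The motifs were searched on both strands, and their matches are descriptions of the sequence. The EBF1-like matches at -54 and -53 of *SIGLEC10* overlap each other.

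*SIGLEC5* and *SIGLEC14* are neighbours with near-identical sequence directly upstream of their starts. They are printed as a pair because their transcripts share sequence that read counting can divide between them. Their 180 bases upstream of the start are equal at 176 positions (97.8%), and capitals mark the 4 bases that differ. Only this alike stretch is printed. In the rest of the 250 bases upstream, the sequences of the pair are less alike.
SIGLEC5, chr19:51630402-51630581, minus strand: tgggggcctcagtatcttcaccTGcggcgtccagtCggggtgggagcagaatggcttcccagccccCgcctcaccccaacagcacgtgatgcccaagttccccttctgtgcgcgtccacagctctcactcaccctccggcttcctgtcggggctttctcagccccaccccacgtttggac
SIGLEC14, chr19:51646826-51647005, minus strand: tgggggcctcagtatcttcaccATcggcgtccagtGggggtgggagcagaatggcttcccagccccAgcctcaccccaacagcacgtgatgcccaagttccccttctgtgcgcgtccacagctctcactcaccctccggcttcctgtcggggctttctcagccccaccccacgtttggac
Of the 50-base words in *SIGLEC5* exons, 23.1% also occur in *SIGLEC14* transcripts, so that the split of counts between them is uncertain. Of the words in *SIGLEC10* exons, 8.38% occur in transcripts of other genes, mainly *SIGLEC11* (5.72%), and at most 1.12% do for *CD22*, *CD33*, *SIGLEC1*, *SIGLEC7* and *SIGLEC9*. *SIGLEC10* also overlaps the antisense gene *SIGLEC10-AS1* (listed as LOC100129083), which had 8 to 17 counts per library. The libraries were made with a stranded kit, but the strand setting of the counting is not given in the sources used here, so that reads of the overlapping pair may not be separable.

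Total counts ranged from 9273470 to 12718780 per library. In the text, CPM are counts scaled to a common library size after TMM normalization, a gene is called higher or lower where edgeR's quasi-likelihood test gave a Benjamini-Hochberg adjusted p below 0.01 and the log2 fold change exceeded 0.6 in size, and errors of means are SD with n = 2. The B cell and macrophage labels were checked on marker genes. All 8 reported B cell markers were called lower in the 96 h control than at 0 h and all 10 macrophage markers higher. Of all tested genes, 22.9% were called lower and 25.4% higher in this comparison. Summed CPM of the B cell markers were 3234 and 3233 at 0 h against 338 and 350.0, and those of the macrophage markers were 41.7 and 39.5 at 0 h against 5377 and 5132. In the control, most of the macrophage sum was *LYZ* (mean 4527 CPM). Of 12 markers of other cell types, 9 did not pass the filter on low counts, and *CD3D*, *GP1BB*, *HBB*, *HBA1* and *EPCAM* had no count in any library. The 3 tested were called in the control against 0 h: *PPBP*, known from platelets, had 0 and 0 counts at 0 h and 171 and 211 in the control and *PECAM1*, an adhesion molecule gene of endothelium and leukocytes, 30 and 40 against 1366 and 1328, both called higher, and the collagen gene *COL1A1* was called lower (log2 fold change -1.70). *CTCF* itself had 2235 and 2849 counts at 0 h, 2048 and 1875 in the control and 2062 and 2051 in the depleted cells; the degron acts on the protein, so that these counts do not check the depletion. In bulk RNA, fewer cells of a type and less RNA per cell cannot be told apart.

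At 0 h, *CD22* dominated the Siglec transcripts. It had 1795 and 2391 counts, or 182 ± 4.12 CPM, and made up 83.5% ± 0.857 of the summed CPM per kilobase of exon of the 8 genes. *SIGLEC10* followed with 165 and 242 counts (17.6 ± 0.80 CPM) and 13.5% of the sum, and *SIGLEC9* with 22 and 31 counts and 2.55%. The library values of these 3 genes were separate on the scale per length. *CD33*, at 3 and 9 counts, and *SIGLEC7*, at 2 and 1, overlapped each other below them. *SIGLEC1*, *SIGLEC5* and *SIGLEC14* had no counts, which at this depth allows up to 3 counts per library, or 0.309 and 0.225 CPM.

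At 96 h in the control, *SIGLEC9* led. It reached 635 and 674 counts (59.2 ± 4.51 CPM) and 61.1% ± 2.32 of the summed CPM per kilobase, and *CD22* made up 14.8% ± 0.836. *SIGLEC1* (2.07 CPM per kilobase), *SIGLEC5* (2.06) and *SIGLEC7* (1.99) came next, and the libraries of neighbours in this order overlapped. *CD33* (1.54) and *SIGLEC10* (1.51) overlapped as well, at the bottom of the detected genes, and *SIGLEC14* had no count.

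In the CTCF-depleted cells the share of *CD22* was 30.4% ± 2.08 and that of *SIGLEC9* 43.1% ± 0.341. *SIGLEC9* (22.3 CPM per kilobase), *CD22* (15.7), *SIGLEC10* (3.95) and *SIGLEC5* (3.15) were separate from each other in this order. *CD33* (2.88) overlapped both *SIGLEC5* and *SIGLEC7* (2.51), and *SIGLEC1* (1.27) was lowest of the genes with counts in both libraries. The order of the leading pair in the depleted cells depended on the exon length used: per kilobase of the longest transcript, *CD22* made up 39.9% and *SIGLEC9* 39.0%. The plot of the make-up in each library shows the replacement of one leading Siglec by another and the larger *CD22* share in the depleted cells.

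**Figure D1:**
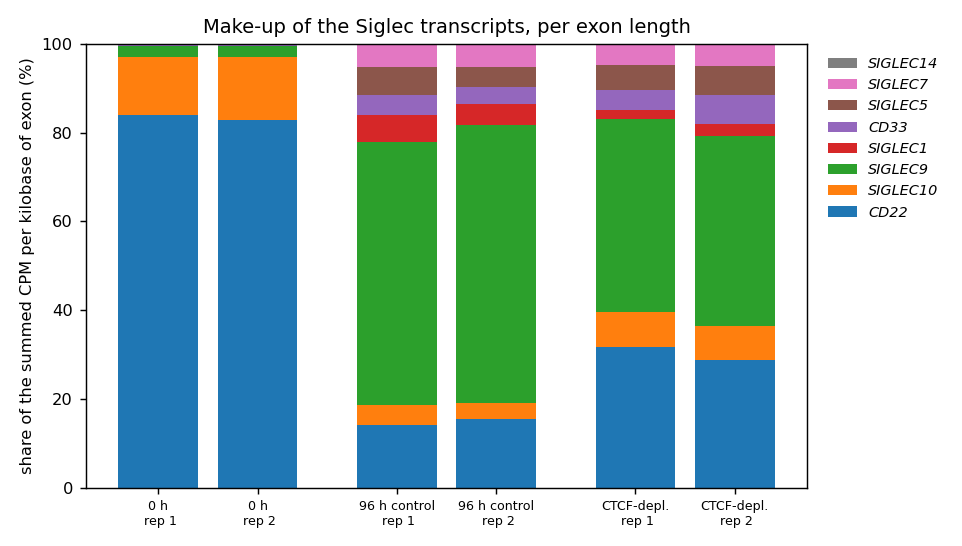
Share (%) of each Siglec in the summed CPM per kilobase of exon (union of exons) of the 8 genes, as 1 stacked bar per library (CTCF-depl., 96 h CTCF-depleted). *CD22* made up 83.5% on average at 0 h, 14.8% in the 96 h control and 30.4% in the 96 h CTCF-depleted libraries.

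The comparison of the 96 h control with 0 h asks how the receptors change as B cells become macrophages. All 7 tested Siglecs were called: the 2 B cell Siglecs fell and the 5 myeloid Siglecs rose, where 25.4% of all tested genes were called higher and 22.9% lower. *CD33*, *SIGLEC1*, *SIGLEC5* and *SIGLEC7* passed the filter on low counts only through the 96 h libraries. Their rise was thus nearly fixed in advance, which limits the count of calls and the median. With at least 10 counts in every library, 1 member was called higher. The same limit applies to genes of the lists below with few or no counts at 0 h. The median log2 fold change of the 7 genes was 4.68, or 4.53 with *SIGLEC1* and *SIGLEC5* at their lower bounds, against 0.02 over all tested genes. The libraries of the groups did not overlap for any of the 7 genes, which was also the case for 43.9% of all genes in the higher direction and 42.8% in the lower. DESeq2 made the same number of calls in each direction.

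*CD22* had 1795 and 2391 counts at 0 h and 368 and 401 in the control. Scaled to library size, the control libraries held 19.1% of the 0 h level, and the log2 fold change was -2.39 (SE 0.07, edgeR adjusted p = 5.72e-37). *SIGLEC10* went from 165 and 242 counts to 67 and 56, or 31.6% of its 0 h level, a log2 fold change of -1.66 (SE 0.16, edgeR adjusted p = 6.52e-14). Both B cell Siglecs thus stayed above the floor of 3 counts after conversion.

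*SIGLEC9*, an inhibitory receptor of monocytes and neutrophils, was the only myeloid Siglec of the 5 with more than 9 counts in a 0 h library. Its counts of 22 and 31 at 0 h stood against 635 and 674 in the control, a log2 fold change of 4.68 (SE 0.13, edgeR adjusted p = 1.04e-37). *CD33* went from 3 and 9 counts to 110 and 94, a 17.7-fold ratio with a 95% counting interval of 9.91 to 34.8 (edgeR adjusted p = 1.83e-16). *SIGLEC7* went from 2 and 1 counts to 45 and 45. Its ratio was 31.2, with a counting interval of 10.3 to 154 (edgeR adjusted p = 3.95e-12).

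*SIGLEC1*, the macrophage adhesion receptor, had no count at 0 h and 209 and 164 counts in the control, at least 62.9-fold higher when 3 counts per library are taken as the floor (edgeR adjusted p = 4.67e-25). *SIGLEC5* likewise went from 0 and 0 to 79 and 58 counts, at least 23.1-fold higher (edgeR adjusted p = 8.64e-17). *SIGLEC14*, its neighbour with partly shared sequence, had a single count in the 6 libraries, in a depleted one. Summing the counts of *SIGLEC5* and *SIGLEC14* changed no call.

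**Figure D2:**
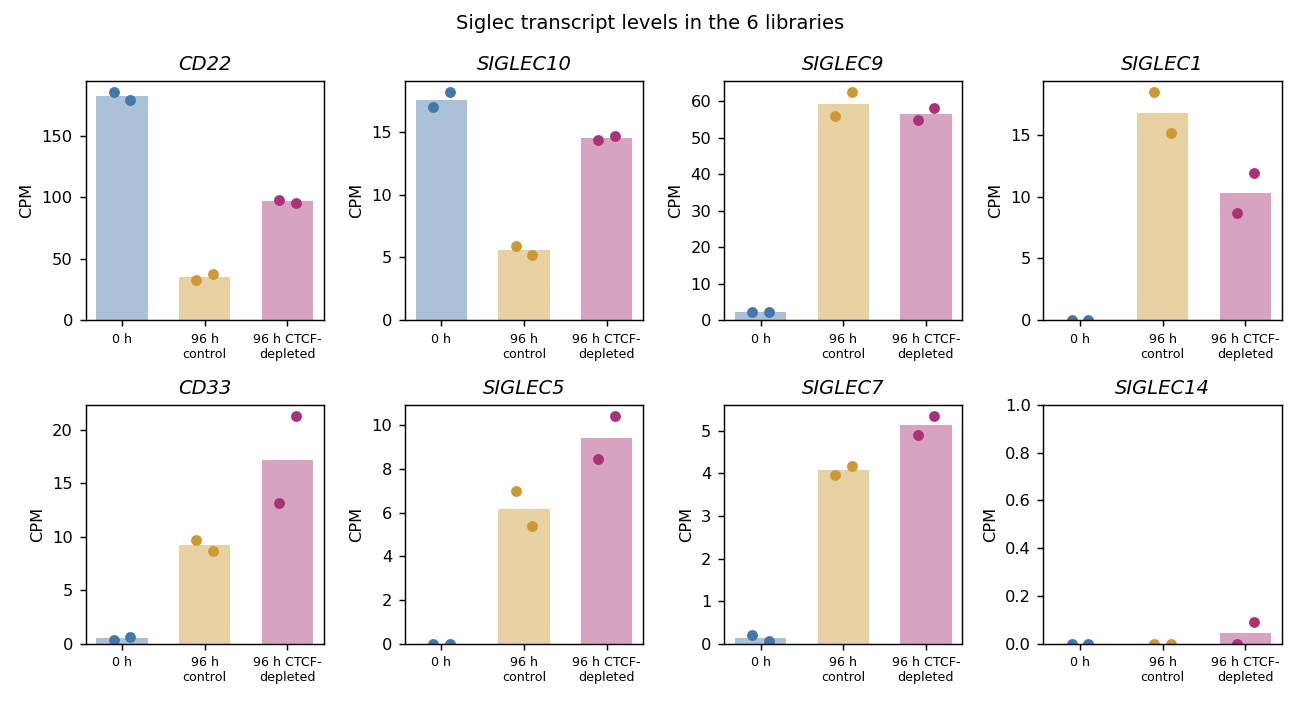
CPM of each Siglec in the 6 libraries (points, 2 biological replicates per condition) with the mean as a bar; each panel has its own axis from 0. *CD22* and *SIGLEC10* were highest at 0 h, and the depleted libraries lay above both control libraries for both genes.

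The comparison of 96 h CTCF-depleted with 96 h control cells asks whether loss of CTCF during conversion alters these levels. Both B cell Siglecs were higher upon CTCF depletion, *CD33* was higher, *SIGLEC1* was lower, and *SIGLEC5*, *SIGLEC7* and *SIGLEC9* were not called. That is 3 of 7 higher and 1 of 7 lower, where 5.41% of all tested genes were called higher and 7.03% lower. The median log2 fold change of the 7 genes was 0.61, against -0.03 over all tested genes. The libraries of the groups did not overlap in the higher direction for 5 of the 7 genes and in the lower direction for 1, against 30.1% and 37.8% of all genes.

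*CD22* had 368 and 401 counts in the control and 1057 and 1034 in the depleted libraries, or 34.8 ± 3.29 against 96.6 ± 1.85 CPM. The difference was 2.77-fold, a log2 fold change of 1.47 (SE 0.07, 95% interval 1.33 to 1.62, edgeR adjusted p = 3.04e-24). *SIGLEC10* had 67 and 56 counts against 155 and 159, or 5.55 ± 0.514 against 14.5 ± 0.209 CPM. This was a 2.61-fold difference and a log2 fold change of 1.38 (SE 0.17, 95% interval 1.06 to 1.71, edgeR adjusted p = 5.84e-10). The intervals of the 2 genes overlap, and their calls were kept in every alternative analysis.

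*CD33*, the myeloid receptor used clinically as a leukemia antigen, had 110 and 94 counts in the control and 142 and 231 in the depleted libraries, and the depleted pair was the more spread of the groups. The log2 fold change was 0.90 (SE 0.17, 95% interval 0.56 to 1.24, edgeR adjusted p = 2.07e-05), a 1.87-fold difference. Without depleted replicate 2, the higher of the pair, it was 0.54 and under the threshold on size. *SIGLEC1* had 209 and 164 counts in the control and 94 and 129 in the depleted libraries, which did not overlap. The depleted cells held 61.2% of the control level, a log2 fold change of -0.71 (SE 0.16, 95% interval -1.02 to -0.39, edgeR adjusted p = 2.76e-04). This call was lost with DESeq2 (log2 fold change -0.70, DESeq2 adjusted p = 0.0242), without control replicate 1 (-0.53) and without depleted replicate 1 (-0.46), and over the alternatives the adjusted p ranged from 4.76e-05 to 0.728.

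The other 3 myeloid Siglecs did not pass the test. *SIGLEC5* had 79 and 58 counts in the control against 91 and 113, with a log2 fold change of 0.61 (SE 0.20, 95% interval 0.21 to 1.00, edgeR adjusted p = 0.0127), and it passed in the fit of only the 4 libraries compared (0.64, edgeR adjusted p = 0.00309). Over the alternatives the adjusted p of *SIGLEC5* ranged from 0.00309 to 1. *SIGLEC7* had 45 and 45 counts against 53 and 58, a log2 fold change of 0.33 (SE 0.25, 95% interval -0.16 to 0.83, edgeR adjusted p = 0.319). *SIGLEC9*, the most abundant Siglec of the control macrophages per length, had 635 and 674 counts against 593 and 632. Its CPM overlapped between the groups, and its log2 fold change was -0.07 (SE 0.08, 95% interval -0.21 to 0.08, edgeR adjusted p = 0.532).

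Against 0 h, the CTCF-depleted cells had 5 of 7 Siglecs higher and 1 lower, where 27.2% of all tested genes were called higher and 25.2% lower. This comparison shares its libraries with the 2 above and is given beside them for the levels. The limit on members that passed the filter only through the 96 h libraries applies here too. *CD22* in the depleted cells was at 53.0% of the 0 h level, a log2 fold change of -0.92 (SE 0.06, edgeR adjusted p = 5.54e-20), where the control cells were at 19.1%. *SIGLEC10* was at 82.5% of the 0 h level, where the control cells were at 31.6%. Its log2 fold change against 0 h of -0.28 did not pass the test (SE 0.14, 95% interval -0.55 to -0.02, edgeR adjusted p = 0.0545). The 5 myeloid Siglecs were called higher than at 0 h in the depleted cells too, *CD33* by a ratio of 33.1 (counting interval 18.7 to 64.5), *SIGLEC7* by 39.3 (13.1 to 194), *SIGLEC1* at least 38.5-fold and *SIGLEC5* at least 35.2-fold. Across the 8 genes, the summed CPM were 205 and 201 at 0 h, 134 and 138 in the control and 202 and 217 in the depleted cells.

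Markers of the B cell state were compared in the same libraries. None of the 8 reported B cell markers was called higher upon CTCF depletion with edgeR or DESeq2, where 5.41% of all tested genes were called higher. At an unadjusted p below 0.05, none was higher and 4 were lower. The share of all tested genes at this looser cut is not given here. Called lower, beside 7.03% of all tested genes, were 2 markers, *VPREB1* of the surrogate light chain (log2 fold change -0.89) and the recombinase gene *RAG1* (-1.94). The log2 fold changes of *PAX5* (-0.10) and *EBF1* (-0.02), which encode B lineage factors, did not pass. The median over the 8 markers was -0.19. Their levels in the control ranged from 1.22% to 59.7% of 0 h with a median of 9.96%, and in the depleted cells from 0.319% to 53.1% with a median of 7.63%. The summed CPM were 338 and 350.0 in the control and 302 and 316 in the depleted libraries. Whether these markers relate to the levels of *CD22* and *SIGLEC10* was not tested.

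Of the 10 macrophage markers, the integrin gene *ITGAM* (log2 fold change 1.15) was called higher upon depletion and the mannose receptor gene *MRC1* (-1.33) lower, with a median of 0.23, where 5.41% and 7.03% of all tested genes were called. Their summed CPM were 5377 and 5132 in the control and 5013 and 4976 in the depleted cells. Most of each sum was *LYZ*, with a mean of 4527 CPM in the control and 4158 in the depleted cells. Its log2 fold change was -0.12, and 6 of the 10 markers were above zero. Among the markers of other cell types, 3 were tested and none was called upon depletion with edgeR or DESeq2. At an unadjusted p below 0.05, 1 of the 3 was lower, and the share of all tested genes at that cut is not given here. Their summed CPM were 13.9 and 14.7 at 0 h, 141 and 146 in the control and 128 and 121 in the depleted cells, and their part in the results was not tested. The plot of log2 fold changes sets the Siglecs beside both marker lists.

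**Figure D3:**
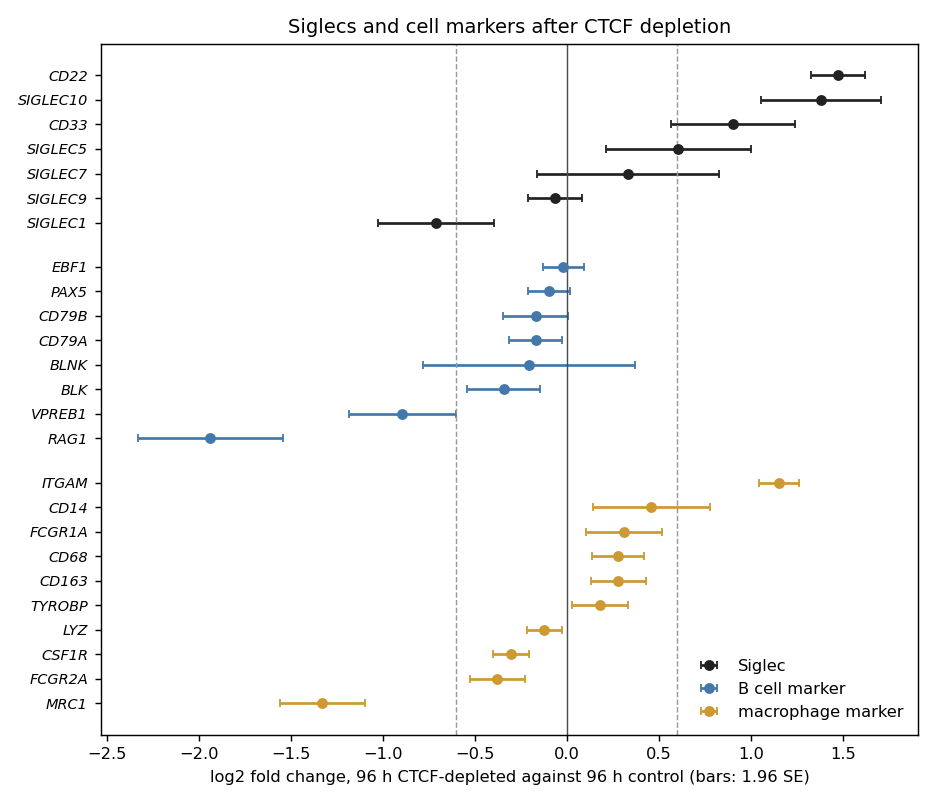
Log2 fold change of 96 h CTCF-depleted against 96 h control for the 7 tested Siglecs, the 8 B cell markers and the 10 macrophage markers; points are edgeR estimates, bars 95% intervals from the SE, and dashed lines the threshold of 0.6. *CD22* (1.47) and *SIGLEC10* (1.38) lay above the threshold, and all 8 B cell markers were below zero.

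Genes with a course like those of *CD22* and *CD33* were sought among 9858 genes with a mean of at least 10 CPM, as the smallest root mean square difference in log2 CPM, centred on each gene's mean, over the 6 libraries. For *CD22* these were *FGFR1* (difference 0.11), a growth factor receptor gene, *SLAIN1* (0.14), whose product binds microtubule ends, and *TRIB2* (0.18), a pseudokinase gene. *FGFR1* had 1132 and 1509 counts at 0 h, 277 and 280 in the control and 689 and 625 in the depleted cells. *SLAIN1* had 686 and 919, then 181 and 185, then 425 and 420. *SIGLEC10* stood at rank 22 by likeness to *CD22* (0.35), the nearest of the Siglecs. The points share 3 conditions, so that likeness across them is a description only.

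For *CD33* the most alike genes were *TRG-AS1* (0.24), *TBXAS1* (0.30), the thromboxane synthase gene, and *FCGRT* (0.32), which encodes the neonatal Fc receptor. *TRG-AS1* is antisense to a T cell receptor locus, and whether its counts are free of reads from the other strand is not known here. *TBXAS1* had 19 and 31 counts at 0 h, 336 and 317 in the control and 520 and 516 in the depleted cells. Among the Siglecs, the difference from *CD33* was smallest for *SIGLEC9* (0.49), followed by *SIGLEC7* (0.52) and *SIGLEC5* (0.61), of which *SIGLEC7* and *SIGLEC5* had a mean under 10 CPM and were outside the genes searched. At 0 h, *CD33*, *SIGLEC7* and *SIGLEC5* had few or no counts, so that these differences depend in part on the prior count.

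Of the other 9 genes of the Siglec family that were looked up, 3 were tested. *SIGLEC15*, known from osteoclasts, had 82 and 101 counts at 0 h, 10 and 10 in the control and 9 and 7 in the depleted cells, and was called lower in the control than at 0 h (log2 fold change -3.13). Upon depletion its log2 fold change was -0.29 and did not pass. The pseudogene *SIGLEC17P* had 3 and 3 counts, then 47 and 37, then 67 and 74, and was called higher in the control and again higher upon depletion (0.78, SE 0.24, edgeR adjusted p = 0.00812). That call was lost with DESeq2, with glmTreat (a test against the fold threshold itself) and without each of the 4 libraries at 96 h in turn. *MAG* (Siglec-4), a myelin protein gene, had 14 and 21, then 4 and 12, then 25 and 17 counts. It lies 5454 bases from *CD22*, and its log2 fold change upon depletion of 1.41 (SE 0.48, edgeR adjusted p = 0.0147) did not pass, nor did its change in the control against 0 h. The control and depleted libraries did not overlap. *SIGLEC11*, the partner of *SIGLEC10* in shared sequence, had 0 and 0, then 5 and 4, then 8 and 13 counts, and *SIGLEC8*, the eosinophil Siglec, had none in any library.

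The ligands of Siglecs are made by sialic acid enzymes, and these were counted from fixed lists. Of 8 genes of sialic acid synthesis and turnover, all tested, 3 were called higher in the control than at 0 h, beside 25.4% of all tested genes: *NPL* (log2 fold change 3.03), the sialic acid lyase gene, *SIAE* (3.08), the sialic acid esterase gene, and *SLC35A1* (1.38), the transporter of activated sialic acid into the Golgi. *SIAE* was also the single member called higher upon depletion (0.66, SE 0.09, edgeR adjusted p = 3.29e-08), beside 5.41% of all tested genes, and this call was lost with glmTreat. It had 325 and 301 counts in the control and 487 and 479 in the depleted cells, which did not overlap. SIAE removes acetyl groups from sialic acid, which changes the form that CD22 binds.

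Of 20 sialyltransferase genes, 12 were tested, and 4 were called higher and 5 lower in the control than at 0 h, beside 25.4% and 22.9% of all tested genes. The smallest adjusted p values were those of *ST3GAL6*, with 0 and 0 counts at 0 h and 1178 and 1160 in the control, *ST3GAL1* (log2 fold change 2.56) and *ST8SIA4* (1.46). *ST3GAL1*, which adds sialic acid in the alpha-2,3 linkage, was the single member called upon depletion, where 5.41% of all tested genes were called higher and 7.03% lower. It fell from 2277 and 2217 counts to 1402 and 1418 (log2 fold change -0.64, SE 0.06, edgeR adjusted p = 5.65e-14). Without control replicate 2 or without depleted replicate 1 its fold change was under the threshold, at -0.60 for the smaller of these, and the call was also lost with glmTreat. *ST6GAL1*, which makes the alpha-2,6-linked ligand that CD22 prefers, was among the 5 called lower in the control (-1.11, 1538 and 2100 counts at 0 h, 769 and 845 in the control). In the depleted cells it had 664 and 728 counts, and its log2 fold change of -0.18 did not pass. Of 5 genes of sialidases and their protector, 3 were tested: *CTSA*, the protective protein of the lysosomal sialidase, was higher in the control (2.04), *NEU3* was lower (-1.10) and *NEU1* (0.55) was not called.

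The 10 genes of Siglec signalling partners were all tested. In the control, 5 were called higher than at 0 h (25.4% of all tested genes), among them the kinase gene *LYN* (log2 fold change 2.77), which phosphorylates the tails of these receptors, *INPP5D* (1.64), which encodes the phosphatase SHIP1, and *TYROBP*, which encodes DAP12 and had 1 and 0 counts at 0 h against 609 and 549. *PTPN6*, which encodes SHP-1, was the single one called lower (-1.08), as were 22.9% of all tested genes. Upon depletion none of the 10 was called with edgeR or DESeq2, where 5.41% of all tested genes were called higher and 7.03% lower. At an unadjusted p below 0.05 there were 3 higher and 1 lower. The share of all tested genes at that cut is not given here, so these counts cannot be set against it. *PTPN6* had 1028 and 1076 counts in the control and 1499 and 1497 in the depleted cells, and its log2 fold change of 0.54 was under the threshold on size (edgeR adjusted p = 4.08e-11).

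Of 8 genes of sialoglycoproteins that Siglecs bind, all tested, 5 were higher and 2 lower in the control, beside 25.4% and 22.9% of all tested genes. *CD24*, a ligand of Siglec-10 that B cell precursors express, fell by 3.69 on the log2 scale, from 4778 and 6428 counts to 454 and 379, and *CD44* rose by 2.27. *PTPRC* (CD45), a ligand of CD22, had 3 and 0 counts at 0 h and 852 and 859 in the control. *SELPLG*, which encodes the selectin ligand PSGL-1, was the single member called higher upon depletion, beside 5.41% of all tested genes. *SELPLG* had 384 and 377 counts in the control and 744 and 811 in the depleted cells (log2 fold change 1.06, SE 0.08, edgeR adjusted p = 8.56e-17). None of the 8 was called lower upon depletion, and 3 were above zero. *CD24* (log2 fold change -0.39, edgeR adjusted p = 8.80e-05) and *PTPRC* (-0.36, edgeR adjusted p = 1.31e-04) were under the threshold on size. The medians of the 5 lists upon depletion lay between -0.29 and 0.43.

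**Figure D4:**
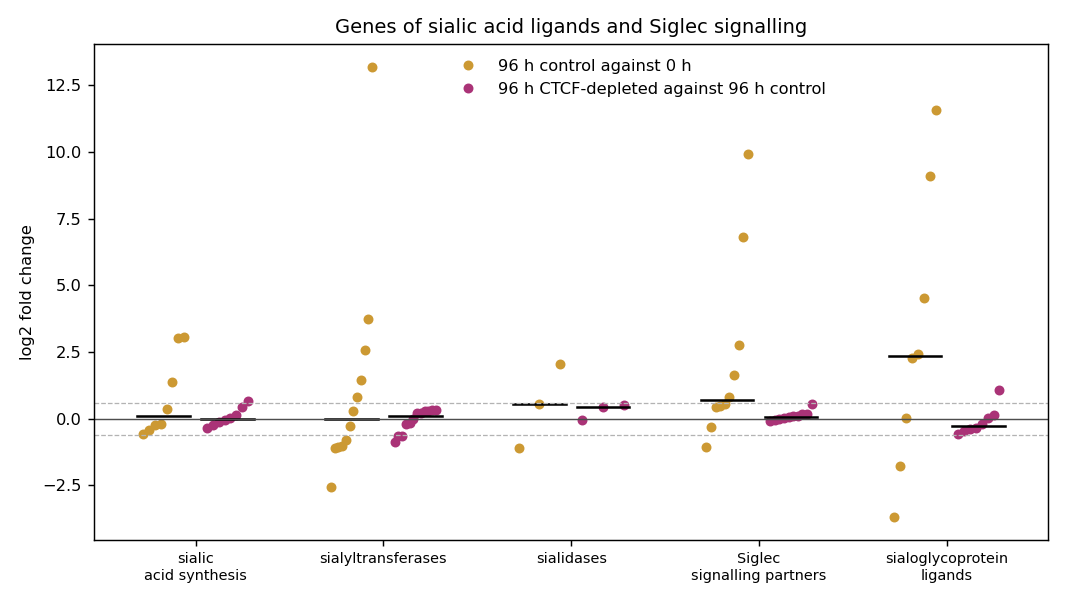
Log2 fold changes (edgeR) of the tested genes of 5 lists of sialic acid enzymes, Siglec signalling partners and sialoglycoprotein ligands, for 96 h control against 0 h and for CTCF-depleted against control at 96 h; black lines are medians and dashed lines the threshold of 0.6. The values above 9 are of genes with 0 to 3 counts per library at 0 h and depend on the prior count, and the changes upon depletion were mostly inside the threshold.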

How the data were processed

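RNA-seq counts were deposited by the authors, who processed reads with the nf-core/rnaseq pipeline, aligned them to hg38 with STAR 2.6.1d and counted protein-coding exons per gene with featureCounts 2.0.6. These raw counts carry no normalization, and they also list genes that code for no protein, such as pseudogenes and antisense RNAs. The annotation release and the strand setting are not given in the sources used here. The members and gene lists were chosen with earlier results of these data known.

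For the tests, edgeR 4.0.16 (R 4.3.3) was applied to the counts. After filterByExpr and TMM scaling, the 6 libraries entered 1 quasi-likelihood fit with condition as the only term. Benjamini-Hochberg adjustment ran over all 14758 genes tested, which hold 99.9% of the counts of each library, and the thresholds were those of the study. The study used DESeq2, run here (1.42.0) as an alternative. The fit was tested on simulated data. Of 200 genes changed in the simulated depleted libraries, 199 were called in the right direction against the control, and no other gene was called. The simulation gave all genes the same spread and the control means in all groups. It therefore does not cover genes whose spread differs or genes with few counts only at 0 h. Counting intervals and floors cover counting error only, since reads carry no molecular identifiers. Log2 CPM for likeness used a prior count of 2. Positions and exon lengths came from GENCODE release 44 on hg38 and promoters from RefSeq (GRCh38.p14); protein sequences were not analysed here. Python 3.11.15 (pandas 2.3.3, scipy 1.17.1, matplotlib 3.10.9) was used for summaries and plots.

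Genes named are all 8 members, list genes called upon depletion or among the 3 smallest adjusted p of their list against 0 h, the 3 genes most like *CD22* and *CD33*, markers, and called neighbours within 100 kb. Other genes named (*ST6GAL1*, *PTPN6*, *SIGLEC8*, *SIGLEC11*, *SIGLEC10-AS1* and the single cell type markers) were chosen after their values were seen. A B cell marker of the list set for this work is not reported here.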

Additional observations from a re-analysis of the deposited data

How the results depend on the processing

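With 2 libraries per group, a two-sided exact permutation test of a single gene cannot go below p = 0.333, so the tests rest on the spread shared across genes. The calls of *CD22* and *SIGLEC10* held in all alternatives run, with log2 fold changes upon depletion of 1.41 to 1.60 and 1.32 to 1.51 when each library was left out. Upon depletion, the count of members called higher was 3 and lay between 2 and 4 when libraries were left out; the count called lower was 1 and became 0 with DESeq2, with glmTreat and with at least 10 counts in every library (which leaves *SIGLEC1* out of the fit), and lay between 0 and 1 with libraries left out. With at least 10 counts in every library, in which 3 members were fitted, 1 member instead of 5 was called higher in the control than at 0 h, and 1 instead of 5 in the depleted cells. *CD33* ranged from 0.54 to 1.25 and lost its call with glmTreat (adjusted p = 0.153, the highest of a range from 1.23e-09) and without depleted replicate 2. *SIGLEC1* ranged from -0.92 to -0.46 and *SIGLEC5* from 0.46 to 0.84, the latter called in 6 alternatives. The log2 fold change of *SIGLEC9* ranged from -0.109 to 0.0437 and changed sign without control replicate 2 (0.0437) and without depleted replicate 1 (0.0153), and was not called in either. Per kilobase of the longest transcript, the *CD22* share was 89.1% at 0 h, 20.7% in the control and 39.9% in the depleted cells. With the replicate number as a block, 3 members were called higher and 1 lower upon depletion, as without it, and no call of a member changed. Samples with the same number did not deviate together (correlations -0.02, 0.01 and -0.03), so that the numbers were not treated as pairs. Of the other genes named as called upon depletion, *SIAE*, *ST3GAL1*, *SIGLEC17P*, *VPREB1* and *VSIG10L* lost their calls with glmTreat. The causes of these changes were not tested. Genes at 0 counts at 0 h limit their folds to lower bounds.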

Other observations

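Genes near the Siglec loci were also tabulated. Of the tested genes that are no members and lie within 100 kb of a member's gene body, 22 had a position, and 3 of them were called higher upon CTCF depletion, beside the 5.41% of all tested genes. *FFAR2*, a short-chain fatty acid receptor gene of myeloid cells, starts 96546 bases from *CD22* (chr19:35443907-35451767, plus strand, hg38). It had 0 and 0 counts at 0 h, 46 and 36 in the control and 153 and 155 in the depleted cells, a log2 fold change upon depletion of 1.94 (SE 0.20, edgeR adjusted p = 5.69e-12), and its call was kept in every alternative in which it was fitted. Around *CD22*, 6 neighbours were tested and *FFAR2* was the single one called upon depletion. The log2 fold changes of the others were also above zero, *MAG* 1.41 (edgeR adjusted p = 0.0147), *LSR* 1.20 (0.0788), *LOC101927522* 1.15 (0.131), *FFAR1* 0.89 (0.225) and *USF2* 0.46 (2.31e-07), the last under the threshold on size. *LSR*, *LOC101927522*, *FFAR1* and *USF2* were chosen after their values were seen.

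*VSIG10L*, an immunoglobulin superfamily gene between *CD33* and *SIGLEC10* (chr19:51331536-51342139, minus strand), had 20 and 35 counts at 0 h, 18 and 32 in the control and 49 and 55 in the depleted cells. Its log2 fold change upon depletion was 1.08 (SE 0.29, edgeR adjusted p = 0.00232), and the call was lost with DESeq2, with glmTreat, without control replicate 1 and without depleted replicate 2. The third neighbour was the pseudogene *SIGLEC17P*, described above.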
